A study of Arabidopsis thaliana with 8 samples.

Results

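Of the 316733 nuclear nucleosomes listed after low MNase digest of mock-treated explants, 467 (0.147%) were chosen by the lists themselves as fragile nucleosomes of both low digests. Each had the center of a low digest dex nucleosome within 50 bp, and no base of its 140 bp interval was overlapped by a nucleosome of either high digest list. Presence and absence in the lists selected these positions, so that presence at low digest and absence at high digest are not findings here.

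Micrococcal nuclease (MNase) cuts DNA between nucleosomes first and DNA on the nucleosome later, and it prefers A and T. Nucleosomes that are seen after mild digestion and are lost with more enzyme are called fragile, and in plants, yeast and animals they have been described mainly at promoters, next to the nucleosome-depleted DNA where transcription starts. They may carry loosely held histones or other bound proteins, which MNase mapping alone cannot separate.

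The study asked how the transcription factor LEAFY (LFY) meets chromatin. MNase-seq was performed on callus of the Landsberg erecta cultivar, from roots of seedlings held on callus-inducing medium (CIM) for 5 days. All plants carried 35S:LFY-GR, LFY fused to the steroid-binding domain of the glucocorticoid receptor, so that mock explants carried the transgene as well. The 35S promoter is active in most tissues, and the fusion protein enters the nucleus after the steroid dexamethasone (dex) is given. The 4 conditions were mock or dex for 1 h, each with a low or a high (standard) digest, with 2 libraries per condition and 8 in all. Each condition was deposited as 1 list of significant nucleosomes, so that no spread between replicates exists for any value, and no difference between conditions was tested.

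On the 5 nuclear chromosomes 316733 nucleosomes were listed at low digest with mock and 242336 with dex, 482098 at high digest with mock, and 376240 by the list named high digest dex. In this order the lists covered 36.1%, 27.9%, 54.4% and 42.7% of the nuclear genome. The entries of the last list carry a name that reads as a low digest dex library. The number of reads behind the lists is unknown, and list length cannot be told apart from depth.

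A low digest dex center lay within 50 bp of 170496 low digest mock nucleosomes (53.8%). Of all low digest mock nucleosomes 5755 (1.82%) were free of the high digest mock list, 6163 (1.95%) were free of the list named high digest dex, and 1291 (0.408%) were free of both. These counts depend on list length. With each list limited to its 242336 highest nucleosomes the rule gave 12309 members, not 467, and 1887 when under 50% of bases could be covered at high digest. The 467 members are those of the 1291 that recurred in the low digest dex list. The remaining 824, listed in low digest mock only, and the 170029 recurring nucleosomes that high digest retained serve as the sets for comparison. A further reference is the free room, all 25717015 possible 140 bp windows (21.6% of the nuclear genome) that neither high digest list overlapped, because the rule could choose only from there. Part of that room may be sequence to which no read pair maps at a single position.

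Members upstream of a gene without exon overlap were ranked by the lower of their occupancy percentiles in both low digest lists. The 3 highest are printed first as examples of base composition. They lie upstream of UBQ10 (a polyubiquitin gene), AT5G46680 (a pentatricopeptide repeat gene) and PETC (the gene of a chloroplast electron transfer protein). Sequences are from RefSeq assembly TAIR10.1, read 5′ to 3′ on the strand of the gene, and capitals mark runs of at least 6 A or 6 T.
UBQ10: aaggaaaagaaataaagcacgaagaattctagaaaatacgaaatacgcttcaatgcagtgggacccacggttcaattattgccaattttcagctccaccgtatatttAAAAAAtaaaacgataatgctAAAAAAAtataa
AT5G46680: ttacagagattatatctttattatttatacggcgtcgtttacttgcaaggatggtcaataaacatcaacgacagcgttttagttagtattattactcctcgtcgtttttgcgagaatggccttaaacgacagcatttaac
PETC: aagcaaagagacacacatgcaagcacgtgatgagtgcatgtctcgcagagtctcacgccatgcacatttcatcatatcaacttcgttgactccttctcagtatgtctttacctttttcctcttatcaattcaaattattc
The UBQ10 member held 64 A and 32 T in its 140 bases and a longest run of 7 A. The members of AT5G46680 and PETC held no run of 6. Their GC contents were 35.7% and 40.7%, compared with 31.4% at UBQ10 and a median of 37.9% over all members.

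The members gathered at gene starts. Of 467, 201 (43%, Wilson 95% interval 38.6% to 47.6%) were centered 1 to 300 bp upstream of a protein-coding gene start. The share was 5.11% (5.01% to 5.22%) of retained nucleosomes, 26.5% (23.6% to 29.6%) of nucleosomes of low digest mock only, and 8.90% of the free room. The odds of an upstream center were 14.0 times those of retained nucleosomes (Woolf 95% interval 11.7 to 16.9). Intervals cover counting error only, since nucleosomes are not replicates. Against the free room the share was 4.84 times as high. This ratio was 2.20 with the list named high digest dex alone, 2.54 with lists of equal length and 2.69 when under 50% of bases could be covered. When freedom from the list named high digest dex alone was required, the odds ratio was 5.13 (4.66 to 5.63), and with high digest mock alone it was 11.0 (10.05 to 11.9). It was 6.58 with the 50% limit.

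**Figure D1:**
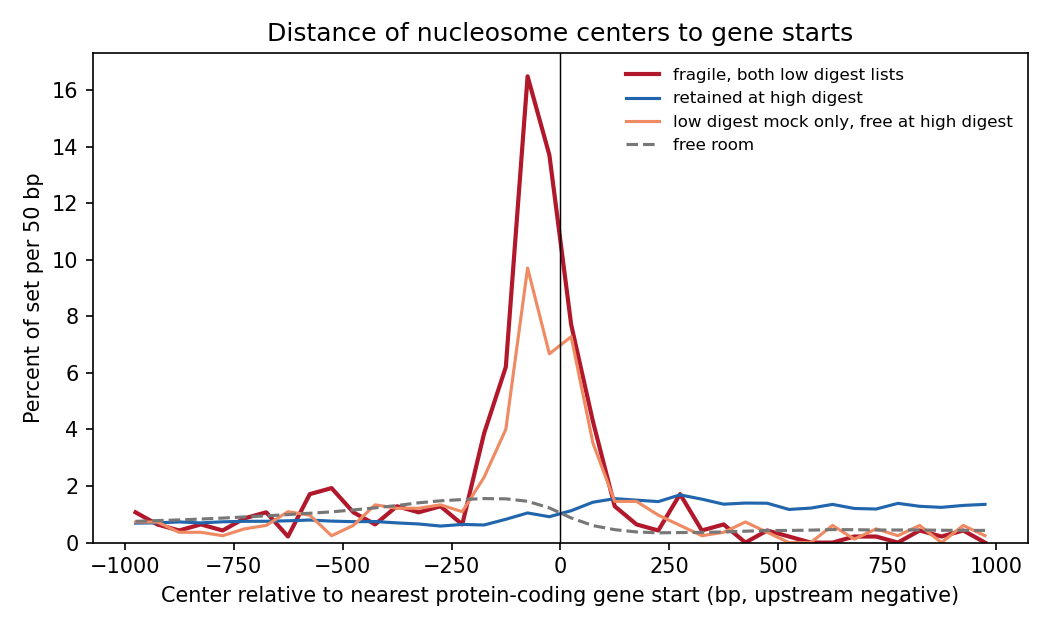
Percent of each set per 50 bp (y axis) against the distance of the nucleosome center to the nearest protein-coding gene start in bp (x axis, upstream negative) for fragile nucleosomes, both comparison sets and the free room. The fragile nucleosomes peak at 16.5% in the bin from 100 to 51 bp upstream, whereas retained nucleosomes lie between 0.585% and 1.69% and the free room between 0.345% and 1.56% per bin.

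The preference was seen on every chromosome. The upstream share was 44.1% of 102 members on chromosome 1, 41.7% of 96 on chromosome 2, 34.2% of 79 on chromosome 3, 44.4% of 81 on chromosome 4 and 48.6% of 109 on chromosome 5. Retained nucleosomes lay between 4.96% and 5.28% on the same chromosomes. The odds ratios ran from 9.32 (5.84 to 14.9) on chromosome 3 to 18.1 (12.4 to 26.5) on chromosome 5, and their intervals overlap.

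Within promoters the members sat close to the start. Counted from the nearest start alone, the first 100 bp upstream held 141 centers, and the first 101 bp from the start into the gene held 56. A further 47 were found from 200 to 101 bp upstream and 9 from 300 to 201 bp upstream. The fullest 50 bp bin, from 100 to 51 bp upstream, held 77 members (16.5%), 11.3 times the share of the free room in that bin. In 144 members (30.8%, 26.8% to 35.2%) the interval itself covered a gene start, compared with 20.9% (18.2% to 23.8%) of nucleosomes of low digest mock only, 2.98% of retained nucleosomes and 2.94% of the free room. The median distance from center to nearest start was 152 bp for members, 692.5 bp for nucleosomes of low digest mock only, 1215 bp for retained nucleosomes and 2040 bp for the free room.

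The odds of an upstream center were also higher than in nucleosomes that were free of both high digest lists but listed in low digest mock only (odds ratio 2.10, 1.65 to 2.67). The opposite set gave another picture. Of 24156 high digest mock nucleosomes with a center in the list named high digest dex within 50 bp and no overlap with either low digest list, 4.84% (4.57% to 5.11%) were centered upstream. That is near the 3.86% (3.79% to 3.93%) of other recurring high digest nucleosomes, with an odds ratio of 1.26 (1.19 to 1.34). The upstream share of the low digest set was thus not seen in the high digest set.

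By annotation 310 centers (66.4%) were intergenic, 117 (25.1%) lay in exon sequence outside coding sequence, 25 (5.35%) in coding sequence and 15 (3.21%) in introns or other gene sequence without exon. Among retained nucleosomes 60.9% were in coding sequence and 18.2% were intergenic. The free room resembled the members more closely here, with 4.61% in coding sequence and 63.4% intergenic.

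At shared promoters the same interval faces a pair of genes. Of the 201 upstream members 28 (13.9%, 9.82% to 19.4%) lay within 300 bp upstream of 2 starts on opposite strands, compared with 5.2% (4.76% to 5.69%) of upstream retained nucleosomes and 2.91% of the upstream free room. The share was 6.88% (4.21% to 11.0%) in upstream nucleosomes of low digest mock only, whose interval overlaps that of the members. The member between AT1G07820, a core histone gene, and AT1G07830, a ribosomal protein L29 gene, is an example. It occupied chr1:2422032-2422171, with its center 36 bp from one start and 24 bp from the other. Genes transcribed by RNA polymerase III were represented too. Within 150 bp of a tRNA start lay 8 members (1.71%, 0.871% to 3.34%), compared with 0.265% of retained nucleosomes and 0.175% of the free room. Of nucleosomes of low digest mock only 7 (0.850%, 0.412% to 1.74%) did, an overlapping interval.

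Other members lay far from coding genes. Of 119 members (25.5%) more than 1 kb from any protein-coding start, the nearest annotated gene of any kind was protein-coding for 66, a pseudogene for 19, a long noncoding RNA gene for 17 and a small nucleolar RNA gene for 5. Retained nucleosomes were that far from a start in 58.0% of cases.

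GC content fell between that of retained nucleosomes and that of the room. Its median was 37.9% in the members (quartiles 35% and 40%), 42.1% (39.3% and 45.7%) in retained nucleosomes and 30% in the free room. Nucleosomes of low digest mock only had the same median as the members (37.9%, quartiles 34.3% and 41.4%). Upstream of genes the medians of members, retained nucleosomes and room were 37.9%, 40% and 25.7%. Members were thus less rich in A and T than the windows from which the rule could choose. Compared within 10 GC classes of equal size, members had an odds ratio for upstream centers of 8.40 (6.96 to 10.1), smaller than the 14.0 found without classes. The part that the preference of MNase for A and T plays in the choice of members was not tested beyond these classes.

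TGGGCC, the site II element that TCP transcription factors bind in promoters of many housekeeping genes, was present on either strand in 145 members (31%, 27.0% to 35.4%). It was found in 3.73% (3.64% to 3.82%) of retained nucleosomes, 15.4% (13.1% to 18%) of nucleosomes of low digest mock only and 1.93% of the free room. The odds were 11.6 times those of retained nucleosomes (9.53 to 14.2) and were 11.0 times those (9.01 to 13.4) within GC classes. With the list named high digest dex alone the ratio was 3.65 (3.25 to 4.10), with lists of equal length 6.92 and with the 50% limit 5.83. Against nucleosomes of low digest mock only it was 2.47 (1.88 to 3.25). Among all 2080 words of 6 letters, a word and its reverse complement taken as 1, 921 were present in at least 5% of members. TGGGCC had the highest share relative to retained nucleosomes of these 921, at 8.32 times, whereas their median ratio was 1.09. The 5% limit was set on the members themselves and left out words that are rare in them. The first place therefore holds among these 921 words only, and their median is not a neutral background. This ranking was made after the shares were seen and carries no test.

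The word was found both in promoters and outside them. Upstream of genes 75 of 201 members (37.3%, 30.9% to 44.2%) held TGGGCC, compared with 14.7% (14.0% to 15.5%) of upstream retained nucleosomes and 5.16% of the upstream free room. Upstream nucleosomes of low digest mock only held it in 30.3% (24.6% to 36.7%), and this interval overlaps that of the members. Elsewhere 70 of 266 members (26.3%, 21.4% to 31.9%) held it, compared with 3.14% of retained nucleosomes, 10.1% (7.92% to 12.7%) of those of low digest mock only and 1.62% of the room. More than 1 kb from any protein-coding start the word was found in 35 of 119 members (29.4%). The comparison sets were not counted at that distance. The share per chromosome ran from 26.5% on chromosome 1 to 36.7% on chromosome 5 in members and from 3.53% to 3.85% in retained nucleosomes.

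Repeated copies were common. Separate copies, with TGGGCCCA counted once, numbered 1 in 91 members, 2 in 51 and 3 in 3. Of the members with the word 37.2% had more than 1 copy, whereas 15.2% of retained nucleosomes with the word and 32.3% of those of low digest mock only did. The copies were not placed at one spot of the interval. Of 202 copies 119 (58.9%) were within 35 bp of the center, and the median distance was 29 bp. In retained nucleosomes the median was 27.5 bp.

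The 5 upstream members with the most copies, ties taken in the order of occupancy rank, are printed because they show how the copies are arranged. They were chosen after their sequences were seen. All overlap no exon and are given on the strand of that gene from RefSeq TAIR10.1, with TGGGCC or its reverse complement in capitals.
ATU2AF65A: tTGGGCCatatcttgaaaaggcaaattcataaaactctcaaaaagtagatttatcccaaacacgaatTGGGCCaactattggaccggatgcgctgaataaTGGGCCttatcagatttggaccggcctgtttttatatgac
AT3G03405: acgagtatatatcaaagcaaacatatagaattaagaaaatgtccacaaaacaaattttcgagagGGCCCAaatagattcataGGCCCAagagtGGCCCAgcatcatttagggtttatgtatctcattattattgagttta
AT3G07568: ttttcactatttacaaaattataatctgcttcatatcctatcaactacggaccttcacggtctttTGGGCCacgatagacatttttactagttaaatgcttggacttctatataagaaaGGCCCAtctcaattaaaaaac
AT1G06550: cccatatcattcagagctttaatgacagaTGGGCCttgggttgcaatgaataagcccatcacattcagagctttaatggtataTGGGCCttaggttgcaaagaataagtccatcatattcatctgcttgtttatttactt
AT5G41860: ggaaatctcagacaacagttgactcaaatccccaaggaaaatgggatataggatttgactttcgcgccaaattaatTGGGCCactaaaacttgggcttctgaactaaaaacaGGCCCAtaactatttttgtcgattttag
The first lies at chr4:17297792-17297931, centered 101 bp upstream of the start of ATU2AF65A, which encodes the large subunit of a splicing factor. It carries 3 copies in the same orientation. The member of AT3G03405, an F-box associated gene, lies at chr3:810862-811001 and holds 3 copies in the opposite orientation, clustered near its middle. AT3G07568, at chr3:2417892-2418031, and AT5G41860, at chr5:16757802-16757941, hold 1 copy in each orientation, and AT1G06550, at chr1:2007242-2007381, holds 2 in the same orientation. In low digest mock the first 3 stood at percentiles 90.7, 84.2 and 82.5, and AT1G06550 and AT5G41860 at 33.4 and 37.2. Their low digest dex percentiles were 73.3, 64.1 and 51.9, and 15.2 for both of the others.

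A further pair of members with repeated copies lies far from protein-coding starts and is printed on the plus strand for comparison with promoter members. Capitals mark the same word.
MSS1: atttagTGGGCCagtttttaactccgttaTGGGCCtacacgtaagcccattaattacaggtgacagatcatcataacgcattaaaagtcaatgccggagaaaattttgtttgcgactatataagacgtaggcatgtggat
AT2G36700: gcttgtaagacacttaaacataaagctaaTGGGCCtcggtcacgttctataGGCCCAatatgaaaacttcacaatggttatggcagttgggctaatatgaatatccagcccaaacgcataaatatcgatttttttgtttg
The interval at chr5:9245242-9245381 is centered 2228 bp downstream of the start of MSS1, a sugar transporter gene, and that at chr2:15388422-15388561 is 2071 bp upstream of AT2G36700. Their occupancy percentiles in the low digest mock list were 94.8 and 97.3, and in the low digest dex list 88.9 and 51.9.

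Other promoter words separated the sets less. CACGTG, the G-box bound by bHLH and bZIP factors, was in 9.85% of members (7.47% to 12.9%), 3.27% of retained nucleosomes and 0.925% of the room. Upstream of genes the members (9.95%) and the retained nucleosomes (10.5%) had like shares, with an odds ratio of 0.95 (0.59 to 1.51). TATAAA, the TATA box, was in 22.7% of members, 8.53% of retained nucleosomes and 29.1% of the room. AAACCCTA, the telo-box of ribosomal and cell-cycle promoters, was in 3.85%, 1.32% and 2.04%. Runs of 6 A or 6 T were in 37.0%, 12.6% and 40.8%, and GAGAGA was in 11.8%, 14.2% and 8.34%. Against nucleosomes of low digest mock only, odds ratios were 1.07 (0.81 to 1.40) for TATAAA and 1.17 (0.93 to 1.49) for runs. They were 1.34 (0.72 to 2.49) for AAACCCTA, 1.04 (0.73 to 1.48) for GAGAGA and 1.98 (1.29 to 3.06) for CACGTG. Against retained nucleosomes the ratio was 3.15 for TATAAA, 1.60 upstream and 1.64 within GC classes. For runs it was 4.10, 1.88 and 2.18, and for AAACCCTA 2.99, 1.46 (0.71 to 2.99) and 3.11.

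The core of the LFY site, CCANTGG, where N is any base, was found in 13 members (2.78%, 1.63% to 4.70%). Retained nucleosomes held it in 3.42% of cases and the room in 1.53%. The odds ratio of members to retained nucleosomes was 0.81 (0.47 to 1.4), an interval that includes 1. All 7 words were searched on both strands of each 140 bp interval, and a match is a description of the letters and not of a bound factor.

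**Figure D2:**
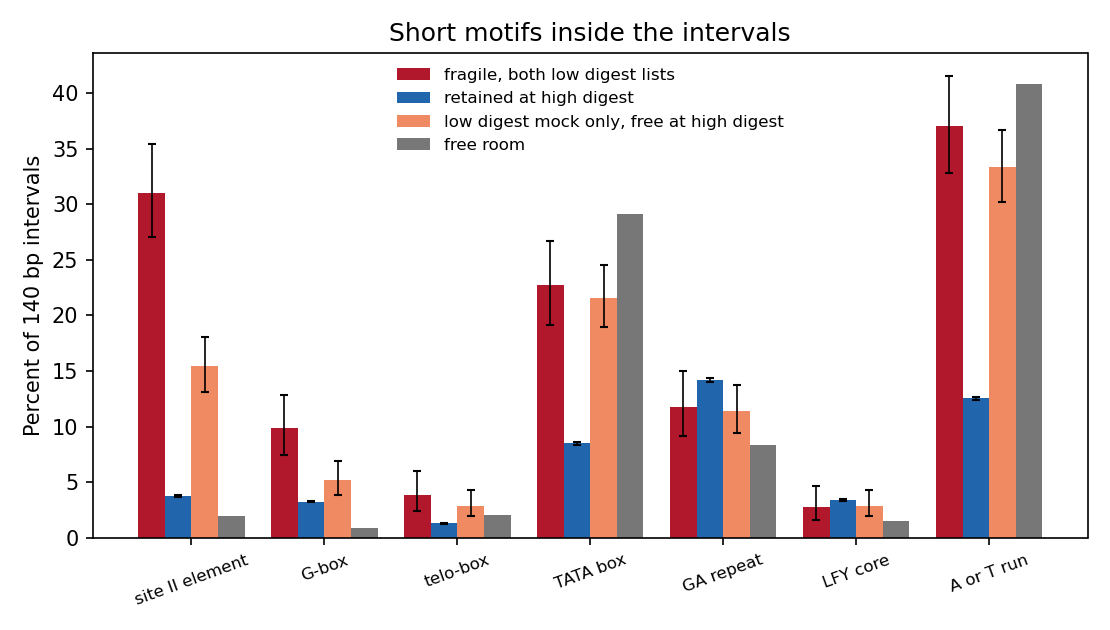
Percent of 140 bp intervals that hold each of 7 short sequence elements (y axis) in fragile nucleosomes, retained nucleosomes, nucleosomes of low digest mock only and the free room. Error bars are Wilson 95% intervals, with none for the room, which is a full count. The site II element is in 31% of fragile nucleosomes, 15.4% of nucleosomes of low digest mock only, 3.73% of retained nucleosomes and 1.93% of the room.

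Occupancy, the authors' summit signal, was ranked within each list only and is a description, since it comes from the call that chose the members. The median member stood at percentile 38.0 of the low digest mock list (quartiles 16.9 and 67.6) and at percentile 51.9 of its low digest dex counterpart (15.2 and 80.1). Retained nucleosomes had a median of 63.8 in low digest mock and those of low digest mock only a median of 10.2. Upstream members ranked higher in the mock list, with a median of 49.9, than members elsewhere, with 30.7. In the low digest dex list both medians fell on the same tied rank, 51.9. The quartiles there were higher upstream (35.8 and 80.1) than elsewhere (15.2 and 73.3). The same order was seen in the mock list for retained nucleosomes (77.9 upstream and 63.1 elsewhere) and for those of low digest mock only (17.2 and 9.36). In both lists above percentile 50 were 130 members, of which 72 (55.4%) were upstream, compared with 129 (38.3%) of the other 337. Only 11 members were above percentile 90 in both lists, and 64 were under percentile 25 in both.

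**Figure D3:**
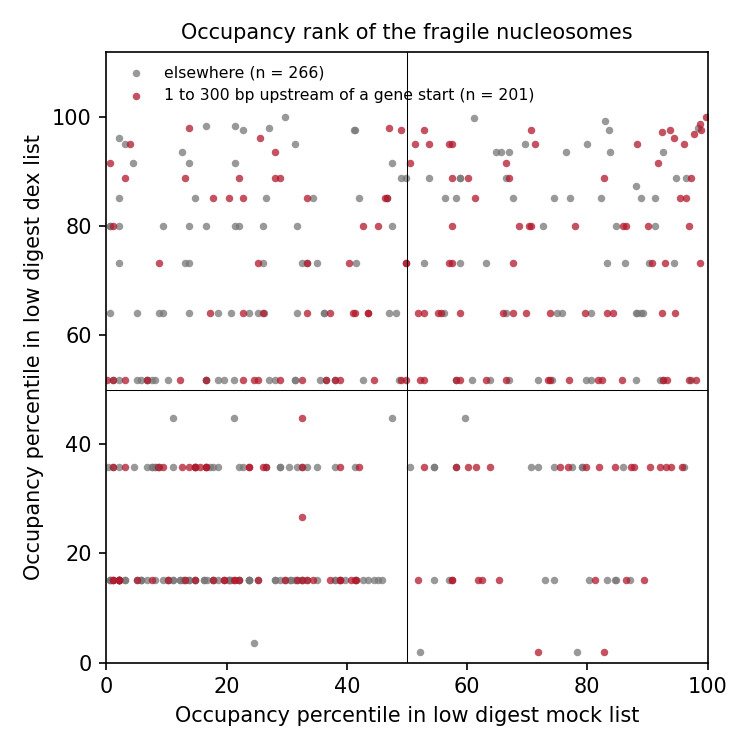
Occupancy percentile of each member in the low digest mock list (x axis) and of its partner in the low digest dex list (y axis), for members 1 to 300 bp upstream of a gene start (201) and elsewhere (266). The horizontal rows come from the deposited low digest dex values, which are whole multiples of 8, and 130 points lie above percentile 50 on both axes.

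The rule limited the offset between paired centers to 50 bp, so that the offsets are a description only. The median offset was 15 bp, with 83 pairs at 0 bp and 230 (49.3%) at up to 10 bp. In retained nucleosomes the median was 20 bp and 41.6% were within 10 bp. For upstream members the dex center was further from the gene in 105 pairs, nearer to it in 71 and equal in 25. Near the limits of the rule, the 28 members with offsets of 45 to 50 bp had 50% upstream centers and a median GC of 37.1%, and 23 free nucleosomes with offsets of 51 to 60 bp, just outside, had 47.8% and 35.7%. A further 97 pairs were kept out by an overlap of 1 to 10 bases, and 33.0% of these were upstream.

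The members stood in stretches of varied length between high digest nucleosomes. The stretch without any high digest nucleosome around a member had a median length of 400 bp (quartiles 250 and 612.5 bp). Under 200 bp were 48 stretches, 155 were over 500 bp, and the longest had 15590 bp. For upstream members the median was 360 bp. On the side of the gene 50 bp remained free between the member and the next high digest nucleosome, and on the far side 130 bp did (medians). The next nucleosome into the gene was well covered at high digest. At 200 bp from the center toward the gene, 80.1% of upstream members had a high digest mock nucleosome and 73.1% one of the list named high digest dex. At low digest 62.7% of them were covered at this distance with mock and 36.3% with dex. At 200 bp on the far side the coverage of upstream members was lower in each list. At high digest 44.3% were covered with mock and 30.3% by the list named high digest dex, and at low digest 26.4% with mock and 20.4% with dex.

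**Figure D4:**
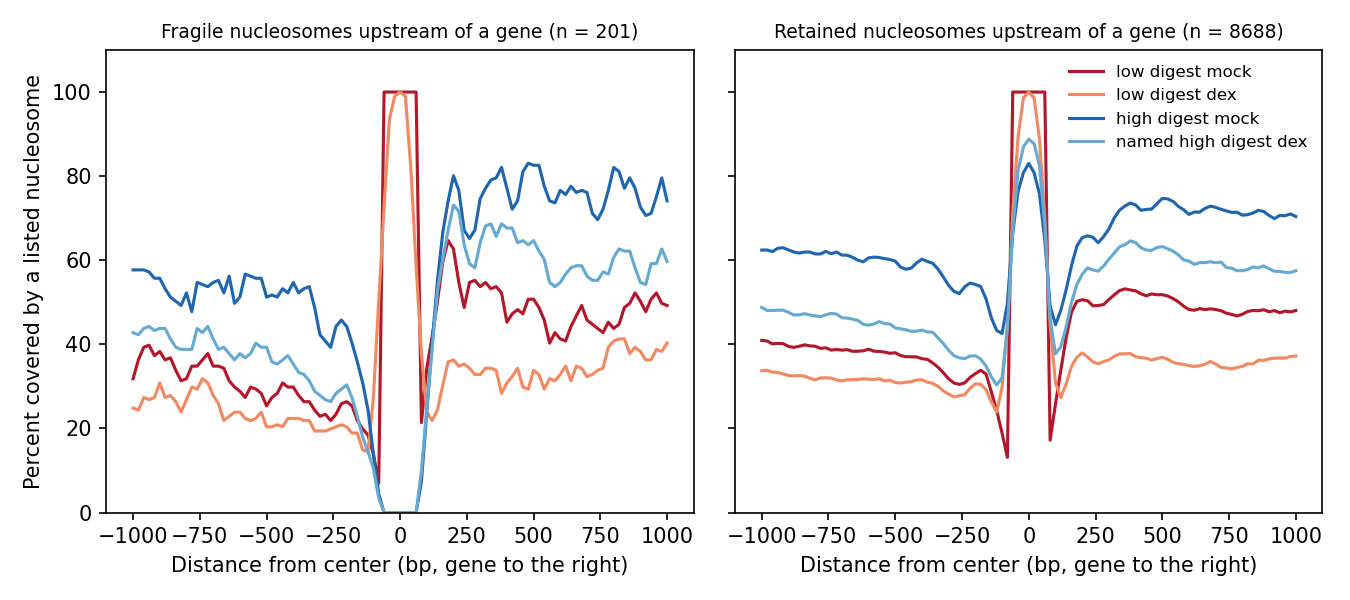
Percent of positions covered by a listed nucleosome in each of the 4 lists (y axis) by distance from the center of 201 upstream fragile nucleosomes (left) and 8688 upstream retained nucleosomes (right), with the gene to the right (x axis, bp). The center is fixed at full low digest mock coverage by the choice of members, and high digest mock coverage is 80.1% at 200 bp into the gene and 44.3% at 200 bp on the far side of fragile nucleosomes. For retained nucleosomes these values are 65.4% and 54.3%.

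Members lie upstream of 227 of 27444 protein-coding genes (0.827%) within 300 bp and of 330 (1.2%) within 1 kb. Of these 227 genes 216 (95.2%, 91.5% to 97.3%) had a high digest mock center from 50 to 300 bp into the gene, where the first nucleosome of a gene commonly sits, compared with 89.2% of all genes. The list named high digest dex gave shares of 86.3% (81.3% to 90.2%) and 82.3%. At low digest the shares were 79.3% (73.6% to 84.1%) and 73.1% with mock, and 52.0% (45.5% to 58.4%) and 54.9% with dex. The share of all genes lay below the interval in both mock lists and inside it in both dex lists.

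The 8 top members by the lower of both occupancy percentiles, among those upstream of a gene without exon overlap, were led by UBQ10. The UBQ10 member lies at chr4:2717722-2717861, centered 185 bp upstream of the start, with an occupancy of 574 (percentile 99.8) in low digest mock and 1368 (percentile 99.99) in low digest dex. UBQ10 was 1 of only 3 genes with more than 1 member in 1 kb. Its second member, centered 515 bp upstream, had an occupancy of 105 in low digest mock (percentile 29.8) and 1432 in low digest dex (percentile 99.996). Low digest dex listed 9 nucleosomes from 1015 bp upstream to 404 bp downstream, with occupancies from 800 to 1440. Low digest mock listed 1215 at the start itself, where the high digest mock nucleosome had 108 (percentile 18) and the list named high digest dex no nucleosome. How many copies of this sequence the plants or libraries held was not tested.

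**Figure D5:**
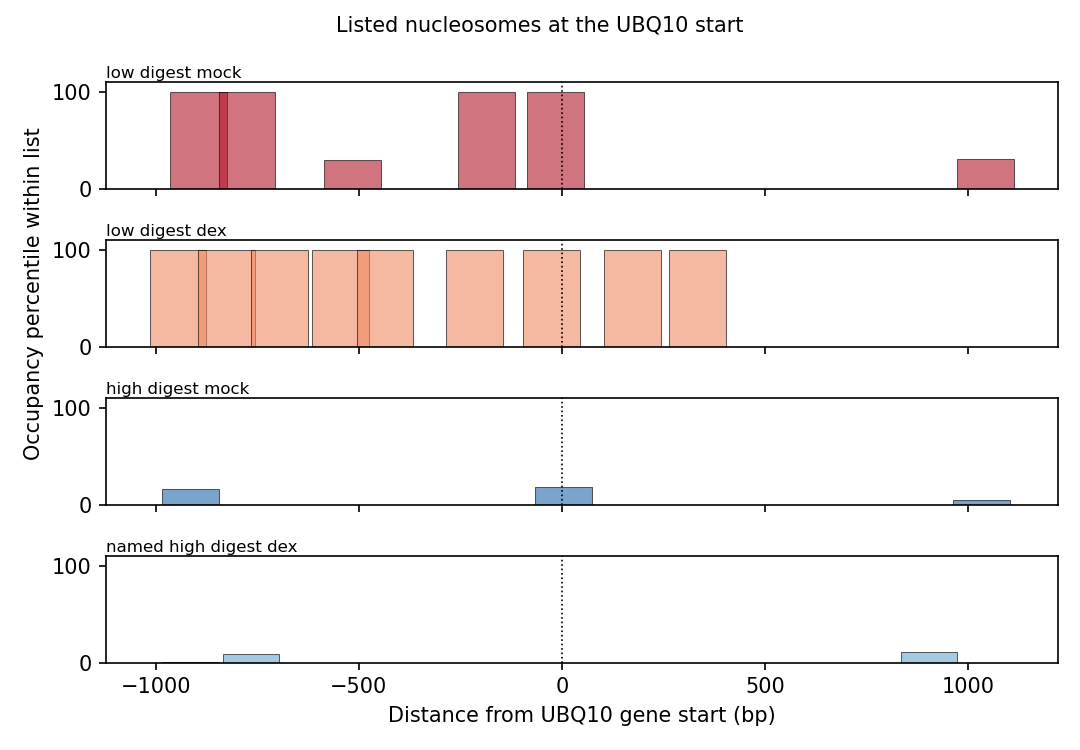
Listed nucleosomes at the start of UBQ10 in the 4 lists, as bars of the interval's width at its distance from the gene start (x axis, bp) and with height equal to the occupancy percentile within that list (y axis). The 9 low digest dex nucleosomes are all near the top of their list, whereas the high digest mock nucleosome over the start is at percentile 18.

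The other top members were single. AT5G46680, a pentatricopeptide repeat gene, had a member 71 bp upstream at chr5:18940762-18940901, with percentiles 97.8 (mock) and 96.9 (dex). PETC encodes the Rieske protein of the cytochrome b6f complex of chloroplasts. Its member at chr4:1439842-1439981, 234 bp upstream, had percentiles 94.5 and 96.1 and stood in a free stretch of 1070 bp. AT1G18830 (percentiles 97.3 and 88.9), AT2G16250, a leucine-rich repeat kinase gene (96.5 and 85.1), AT2G28570 (90.1 and 80.1), GLIP4, a GDSL-motif lipase gene (97 and 80.1) and ATU2AF65A (90.7 and 73.3) followed, in the order mock and dex. The GC content of these 8 members ran from 30.7% to 40.7%.

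The other genes with more than 1 member in 1 kb share a promoter. SDH2-2, which encodes an iron-sulfur subunit of mitochondrial succinate dehydrogenase, and AT5G40645, on the opposite strand, have members at chr5:16281112-16281251 and chr5:16281222-16281361. These are centered 212 and 102 bp upstream of SDH2-2. Their percentiles in low digest mock were 73.8 and 28.9, and both stood at 51.9 in low digest dex. Such closeness was rare, since only 2 neighboring pairs of members lay within 250 bp and the median distance to the next member was 166030 bp.

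The chosen lists of floral, callus and root, shoot meristem and auxin response genes had no member, which does not cover all genes of these processes. Of 26 floral regulators and LFY targets, 15 callus and root regulators, 7 shoot meristem genes and 51 Aux/IAA and ARF genes of auxin response, 0 had a member within 1 kb upstream, compared with 1.2% of all genes. In each of these short lists 1.2% of the genes is less than 1 gene, so that a count of 0 says little. At AP1, RAX1, ACT7, LSH2 and ACR7, which the study examined singly, low digest mock listed 12 to 26 nucleosomes within 3 kb of the gene. None of these was a member, and the nearest members were 210, 150, 20.02, 406 and 26.0 kb from the gene starts.

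Members were few at genes of transcription factors, whose families were pooled after their counts were seen. Over the MYB, WRKY, NAC, bHLH, bZIP, ERF, MADS and homeobox families, 2 of 1012 genes (0.198%, 0.0542% to 0.718%) had a member within 300 bp, compared with 0.827% of all genes. Within 1 kb 5 did (0.494%, 0.211% to 1.15%), compared with 1.2%. In 177 MYB, 133 bHLH, 68 bZIP, 114 ERF and 208 homeobox genes, and in 113 heat shock genes, there was none. Each of these lists is short against a share of 1.2%, so that a count of 0 in one of them says little. Ribosomal protein genes had 5 in 341 (1.47%), all within 300 bp, compared with 0.827% of all genes within 300 bp and 1.2% within 1 kb. Among them AT3G59540, for ribosomal protein L38e, had a member 62 bp upstream at percentiles 95.4 (mock) and 85.1 (dex). Among 69 cytokinin genes 2 had a member in 1 kb (2.90%, compared with 1.2% of all genes). That of HK3, a cytokinin receptor gene, was 137 bp upstream (percentiles 20.3 and 85.1), and that of RR1, a type-B response regulator gene, was 302 bp upstream (75.8 and 64.1). NAC genes had 3 in 110 within 1 kb (2.73%, compared with 1.2% of all genes) and 2 within 300 bp (1.82%, compared with 0.827%). These were at NAC017, AT1G60340 and NAC006, 83, 173 and 562 bp upstream. Single members stood 363 bp upstream of PSAG, for a photosystem I subunit, 766 bp upstream of WRKY55 and 477 bp upstream of AGL77, in lists of 44, 72 and 130 genes, and 1 of 47 core histone genes, AT1G07820, had one.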

How the data were processed

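MNase-seq lists were analysed from 8 libraries in 4 conditions. The authors mapped paired reads to TAIR10 with bowtie (1.2.2 in the submitters' processing notes, which also name Picard 2.9.4), kept single best positions and called nucleosomes with DANPOS. Low digest dex replicates were pooled before the call. The deposited signal is the caller's summit occupancy for each 140 bp interval. Its scaling between lists is not given in the sources used here, so it was ranked within lists, with ties at their mean rank. Starts were taken as 0-based and are given 1-based. The reference is of the Columbia accession, not of Landsberg erecta. RefSeq TAIR10.1, whose nuclear chromosomes are those of TAIR10, gave genes and sequence.

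Members and lists were chosen with earlier results of these data known. Retained nucleosomes, low digest mock only nucleosomes, a mirror set and the free room were compared with them by shares (Wilson intervals), odds ratios (Woolf intervals) and Mantel-Haenszel ratios in 10 bins. No p-value was computed, because each condition has 1 list. Named genes were the 8 top members upstream within 300 bp without exon or organelle-like overlap, genes with most members in 1 kb, up to 4 per gene list, and 5 loci of the study. Names outside this rule were chosen after their values were seen. The rule was tested on simulated data. Analyses used Python 3.11.15, numpy 2.4.6, pandas 2.3.3 and matplotlib 3.10.9. Of the columns of per-sample values, 0 were left unused.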

Additional observations from a re-analysis of the deposited data

Results flagged for a closer look

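On the mitochondrial chromosome, which the report leaves out, 4 of 587 low digest mock calls met the same rule. Of these 587, 511 had a low digest dex center within 50 bp and 12 were free of both high digest lists. The signal drew attention because it lies in data outside the nuclear chromosomes. It was not annotated, because TAIR10 and the reference used here have different mitochondrial sequences.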

How the results depend on the processing

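Up to 12 alternative settings were run on 5 values, namely the number of members, the upstream odds ratio, the GC difference, the ratio to the free room and the odds ratio for TGGGCC, and none of these changed direction. The other results were not run under them. The number of members was 310 with centers within 20 bp, 2401 when free of high digest mock alone, 2736 when free of the list named high digest dex alone, 1887 with under 50% of bases covered, 12309 with all lists cut to 242336 nucleosomes, and 134 in the higher 50% of both low digest lists. In the order of the last 5 settings, the upstream odds ratio was 11.0, 5.13, 6.58, 9.75 and 18.2, and the ratio to the free room 3.75, 2.20, 2.69, 2.54 and 6.29. A window of 500 bp gave 9.52 and 3.35, and GC bins gave an odds ratio of 8.40. The GC difference was -2.86 points, not -4.29, with high digest mock alone and with under 50% covered. The odds ratio for TGGGCC, a result chosen after seeing the data, was 3.65 with the list named high digest dex alone, 5.83 with under 50% covered, 6.92 with equal lists and 9.44 in the higher 50%. The cause was not tested, apart from fewer or more nucleosomes entering. Starting the rule from the low digest dex list, a setting chosen after seeing the data, gave 502 members and an odds ratio of 14.7. No paired analysis was possible because the lists carry no values per replicate, and for the same reason no replicate could be left out.

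The depth of the lists is unknown. Absence from a high digest list can therefore mean a nucleosome below the caller's threshold, and 6 members share sequence with organelle DNA.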

Other observations

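Members with TGGGCC lay closer to gene starts than those without it. The 145 with the word had a median GC content of 37.9% and a median distance to the nearest start of 101 bp, and the 322 without it had 37.1% and 189.5 bp. Median percentiles in low digest mock were 43.6 and 33.4, and in low digest dex 51.9 in both, a tied rank. The stretch free of high digest nucleosomes had a median length of 340 bp around members with the word and 410 bp around those without it. Words present in at least 5% of members were ranked by share in members over share in retained nucleosomes. Those that overlap TGGGCC or resemble it filled most of the first places. AGGCCC was in 19.1% of members and 2.54% of retained nucleosomes, and ATGGGC in 27.4% and 4.70%. These words share letters with TGGGCC and are not independent of it.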
